A study of Homo sapiens with 18 samples.

Results

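LNCaP, an androgen-sensitive line derived from a lymph node metastasis of human prostate adenocarcinoma, was grown with serum and exposed to ACBI at 0.2 µM or to its vehicle DMSO for 72 h. The comparison sets 3 libraries for ACBI against 3 for DMSO, 6 of the 18 libraries of the series. It covers every gene of the table: 15422 of 20145 genes had enough counts to be tested. The other 12 libraries, 3 for each compound, come from cells kept for the same 72 h. Their compounds were 2-77 (1 µM), BD98 (2 µM), and P-16 or ENZA (10 µM each). These libraries also entered the shared fit, and so the filter and the estimate of spread for ACBI against DMSO. Their levels are given only where ACBI is set against them. The title of the series is about selective inhibitors of the bromodomain of BRD7 in prostate cancer, and the labels name no target for ACBI. They do not say whether a group's 3 libraries are separate cultures. Every p below therefore measures the spread between libraries, estimated over all 6 groups unless stated, and that spread may be technical.

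BRD7 is a subunit of PBAF, 1 form of the BAF (SWI/SNF) chromatin remodelling complexes, which use ATP to move or evict nucleosomes and so open enhancers and promoters. In luminal prostate cells androgen signalling, with the pioneer factor FOXA1 and the homeobox factor HOXB13, acts on such enhancers and drives genes for secreted proteases, lipid enzymes and transporters. LNCaP cells depend on androgen signalling for growth.

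The ACBI libraries held 26014808, 23165300 and 26150901 counts and the DMSO libraries 17210738, 19825713 and 22611562. Luminal markers were present in every library: the summed level of all 15 markers on that list was 6831 to 7241 CPM (counts scaled to the size of the library) with ACBI and 9530 to 9644 CPM with DMSO. On the immune and mesenchymal lists 1 marker each was at 0 counts in all 6 libraries, the pan-leukocyte gene PTPRC and the fibroblast surface gene THY1. The 9 immune markers in the table summed to 7.495 to 8.61 CPM with ACBI and 7.68 to 8.69 CPM with DMSO. The 14 mesenchymal markers summed to 2546 to 2757 CPM and 1019 to 1042 CPM, nearly all of it FN1. ACBI replicate 3 stood apart, with 8.602% of its counts in ribosomal RNA, where its 2 partners had 0.990% and 1.13% and the DMSO libraries 0.650% to 1.62%. It also differed from them outside ribosomal RNA: the chi-square of counts per degree of freedom without those genes was 12.7 and 8.44 against its partners and 2.65 between them. Differences in fold were few: of 11748 genes with at least 4 CPM in an ACBI library, 31 were over 2-fold above both other ACBI libraries and 6 over 2-fold below both, where 5 differed by 2-fold between the partners. Of the 31, 18 were ribosomal RNA, 5 U1 small nuclear RNA and 6 other small structured RNAs. The other two were the readthrough gene COMMD3-BMI1 and SH3BGR.

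After ACBI most of the measured transcriptome differed from DMSO. Of the 15422 genes tested 11097 (72.0%) passed edgeR's quasi-likelihood test at an adjusted p under 0.05, 5460 (35.4%) higher and 5637 (36.6%) lower. The median log2 fold change over all tested genes was -0.01. This median and the split depend on how libraries were scaled: library totals alone gave -0.05 and 45.8% of calls upward. Total RNA per cell was not measured. Large changes were more often falls: 1188 genes (7.7%) rose and 2016 (13.1%) fell by at least 2-fold, and 67 (0.434%) rose against 537 (3.48%) that fell by at least 8-fold. All 3 ACBI libraries lay on 1 side of all 3 DMSO libraries for 11153 genes (72.3%). A fit of the 6 libraries alone called 10418 of 14742 genes tested. Without ACBI replicate 3, 10945 of 15619 genes tested (70.1%) were called, 5473 up and 5472 down (35.0% each), and 10457 of the 11097 genes kept their call while 0 turned to the opposite one. Values below are log2 fold changes of ACBI minus DMSO ± standard error unless a CPM level is named. Members of a list that are named for their change had at least 4 CPM in 1 group unless counts are given. Each list is read against the 35.4% and 36.6% of all genes that rose and fell. In a bulk sample, fewer cells of a type and less RNA per cell cannot be told apart.

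**Figure D1:**
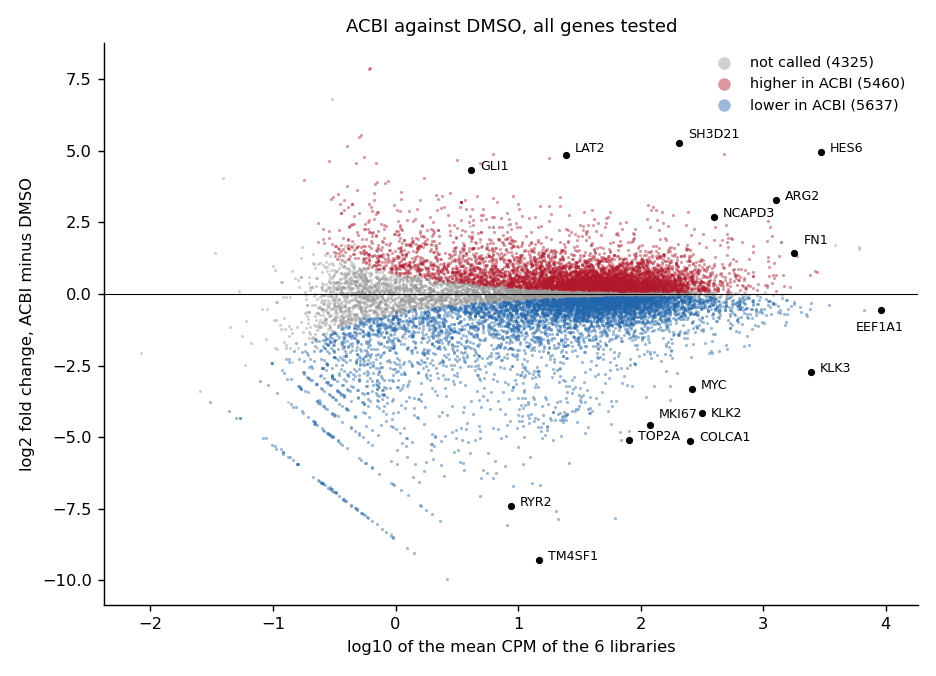
Log2 fold change of ACBI minus DMSO (vertical axis) against the log10 of mean CPM over the 6 libraries (horizontal axis), 1 point per tested gene, coloured by the edgeR call at an adjusted p of 0.05. The 537 falls of at least 8-fold outnumber the 67 such rises, while at the right edge HES6 and ARG2 lie further from 0 than KLK3.

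Among genes with at least 20 CPM in 1 group, passing over those known only by a clone or locus name, the largest rise was that of SH3D21, the gene of an SH3-domain protein on chromosome 1 (36306368 to 36321347, hg38, plus strand), at 9.78, 10.97 and 10.3 CPM in the DMSO libraries and 413, 401 and 387 CPM in the ACBI libraries. The groups were far apart and the ratio was 38.6-fold (5.27 ± 0.066, edgeR adjusted p = 1.04e-31). HES6, an inhibitor of the Notch effector HES1 and a neural differentiation factor that is also expressed in prostate cancer, lies on chromosome 2 (238238267 to 238240038, minus strand). Its level was 187, 180.2 and 184 CPM with DMSO and 5772, 5880 and 5543 CPM with ACBI, 31.2-fold higher (4.96 ± 0.056). Among called genes, with ribosomal RNA left out, HES6 also gained the most mean CPM. ARG2, mitochondrial arginase, on chromosome 14 (67619920 to 67651705, plus strand), stood at 248, 232 and 232 CPM with DMSO and 2254, 2322 and 2332 with ACBI, 9.70-fold higher. Together HES6 and ARG2 rose from 421 ± 12.5 to 8034 ± 164 CPM (SD, n = 3 libraries).

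The other rises among the 12 largest were those of LAT2 (4.85 ± 0.13), an adaptor of immune receptor signalling, TLL2 (4.76 ± 0.15), a tolloid-like metalloprotease, TMEM229B (3.38 ± 0.13), TMEM14A (3.10 ± 0.076), the diacylglycerol kinase gene DGKA (3.07 ± 0.14), HERC5 (3.07 ± 0.10), which attaches the ubiquitin-like protein ISG15, CFAP69 (3.05 ± 0.060), a cilium and flagellum gene, and the histone genes H2AC8 (3.06 ± 0.11) and H2AC19 (2.94 ± 0.059). LAT2 and TLL2 were low genes with DMSO: LAT2 was at 1.80, 1.92 and 1.29 CPM with DMSO and 49.2, 49.3 and 44.7 with ACBI, and TLL2 at 1.57, 1.01 and 1.25 and 35.7, 35.2 and 32.05. Other genes with large gains in CPM were the fibronectin gene FN1 (973 ± 10.8 to 2635 ± 111 CPM), FGFRL1 (2.32), an FGF receptor without a kinase domain, the secreted protein gene SPON2 (0.78), USP54 (2.02) and ABHD2 (0.79).

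At the other end several genes kept few counts with ACBI. TM4SF1, a tetraspanin-like surface protein gene on chromosome 3 (149369022 to 149377649, minus strand), had 479, 601 and 669 counts in the DMSO libraries and 3, 0 and 0 in the ACBI libraries, a ratio of 715 with a 95% counting interval of 244 to 3472. The long noncoding RNA PCAT1 went from 2521 counts to 13 (ratio 238, 139 to 447). DIO3, which inactivates thyroid hormone, went from 2388 to 15 (195, 118 to 350). The vascular genes ANGPT2, which encodes an angiopoietin, and NOS3, endothelial nitric oxide synthase, went from 1764 to 21 counts (103, 67.2 to 167) and from 1532 to 19 (98.9, 63.1 to 165). No library of either group overlapped with the other in any of these genes.

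COLCA1, a transcript of unsettled function on chromosome 11 (111293389 to 111305048, minus strand), was abundant and fell 35.5-fold, from 476, 511 and 484 CPM to 14.1, 14.5 and 12.8 CPM (-5.15 ± 0.050, edgeR adjusted p = 6.11e-34). Among the 12 largest falls were also STYXL2 (-5.95 ± 0.20), DDC (-5.91 ± 0.100), the decarboxylase that makes dopamine and serotonin, the sialyltransferase gene ST6GALNAC1 (-5.69 ± 0.18), DTL (-5.10 ± 0.13), which marks proteins for destruction in S phase, and TOP2A (-5.10 ± 0.065), the topoisomerase that untangles mitotic chromosomes. The greatest losses in CPM were of KLK3, prostate-specific antigen (4276 ± 46.6 to 654 ± 24.00 CPM), and of housekeeping genes: the elongation factors EEF1A1 (-0.55) and EEF2 (-0.57), the ribosomal proteins RPS2 (-0.77) and RPL4 (-0.70), poly(A)-binding protein PABPC1 (-1.09), ferritin heavy chain FTH1 (-0.96) and the glycolytic enzyme GAPDH (-0.39). Processed copies of such housekeeping genes are common in the genome, and how reads shared with them were counted is not given in the sources used here.

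The transcripts of the BAF complexes themselves moved little. Among 23 core and ATPase subunits, 8 rose, 6 fell, 9 did not pass and 0 differed by 2-fold, with a median of 0.06. The ATPase gene SMARCA4 was at 223, 222 and 229 CPM with DMSO and 203, 208 and 188 with ACBI, groups that do not overlap but differ little (-0.17 ± 0.038), and the alternative ATPase gene SMARCA2 did not pass (-0.08 ± 0.050, adjusted p = 0.132) but was called at -0.13 without ACBI replicate 3. SMARCD2 (-0.66), SMARCC1 (-0.64), ACTL6A (-0.57) and SMARCB1 (-0.20) fell, while the DNA-binding subunits ARID1B (0.72) and ARID1A (0.66), SS18 (0.52) and BCL7A (0.49) rose. Of the 4 genes particular to PBAF, ARID2 rose from 77.4, 78.4 and 78.1 to 149.6, 144 and 147 CPM (0.91 ± 0.038), PBRM1, with its row of bromodomains, fell from 238, 260.2 and 246 to 171, 170.2 and 186 CPM (-0.50 ± 0.041) and PHF10 fell (-0.31 ± 0.065). BRD7, the fourth, did not pass: its libraries overlapped at 58.1, 59.8 and 54.1 CPM with DMSO and 53.4, 58.8 and 61.8 with ACBI (0.02 ± 0.062, adjusted p = 0.812). BRD9, the bromodomain subunit of the non-canonical complex, did not pass either (0.06 ± 0.058, adjusted p = 0.333). These are RNA levels, and protein was not measured.

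Other chromatin families shifted more than these BAF subunits. Falls of at least 2-fold were seen for 2 of 22 other remodeller genes, 2 of 23 Polycomb genes and 4 of 12 genes of DNA methylation. On these lists 0 genes rose by as much. Over all genes 13.1% fell and 7.7% rose by at least 2-fold. Of 22 other remodeller genes, members of the ISWI, CHD and INO80 families as well as HELLS and ATRX, 9 rose, 12 fell and 1 did not pass. HELLS, a helicase needed for DNA methylation, fell most (-3.01 ± 0.15), followed by BAZ1A (-1.04), RUVBL1 (-0.95) and CHD1 (-0.83), while CHD3 (0.85), CHD2 (0.68), CHD6 (0.66) and ATRX (0.44) rose. The Polycomb genes, whose products silence developmental genes through histone methylation and ubiquitination, moved in both directions: 14 of 23 rose, 3 fell and 6 did not pass. The histone methyltransferase gene EZH2 (-1.57 ± 0.084), CBX2 (-1.43) and PCGF6 (-0.76) fell, and RBBP7 (0.98), PCGF2 (0.76), BMI1 (0.67) and CBX7 (0.66) rose. Of the genes of DNA methylation 5 of 12 rose, 6 fell and 1 did not pass. UHRF1, which brings the maintenance methyltransferase to replicated DNA, fell by far the most (-4.31 ± 0.10), with that enzyme itself, DNMT1 (-1.16), DNMT3B (2.00-fold) and MBD2 (-0.45). TET2 (0.81), MBD4 (0.60) and DNMT3A (0.30) rose.

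Genes of androgen response and prostate lineage did not move as a whole. FOXA1 rose slightly (0.31 ± 0.032) and HOXB13 did not pass (0.07 ± 0.043, adjusted p = 0.144), though it was called at 0.14 without ACBI replicate 3. Of 20 genes of hormone cofactors and lineage factors tested 11 rose, 7 fell and 2 did not pass. The pioneer factor GATA2 fell from 254, 254 and 256 to 86.8, 78.02 and 73.3 CPM (-1.68 ± 0.046). CREB3L4 (-1.04) also fell, whereas the coactivators NCOA1 (0.79) and NCOA3 (0.79), the ETS factor SPDEF (0.70) and TRPS1 (0.84) rose.

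A textbook list of 44 androgen-induced genes split: 23 rose, 18 fell and 3 did not pass, with a median of 0.31. Large rises were those of NCAPD3 (condensin II), FKBP5 (a cochaperone of steroid receptors, 2.07 ± 0.042), ZNF385B (1.91 ± 0.17) and CAMKK2 (the calcium-dependent kinase that activates AMPK). NCAPD3 went from 105, 104 and 111 CPM to 701, 688 and 682 CPM (2.69 ± 0.039) and CAMKK2 from 219, 229 and 225 to 821, 804 and 766 CPM (1.83 ± 0.038). Both genes lay above every DMSO library in every ACBI library. ACP3, prostatic acid phosphatase, went from 128, 132 and 133 CPM down to 4.78, 4.44 and 4.55 CPM (-4.83 ± 0.062). The kallikrein gene KLK2 went from 609, 591 and 588 to 34.2, 33.1 and 32.1 CPM (-4.17 ± 0.042), and AZGP1 (-2.89 ± 0.085), a secreted glycoprotein gene, and the cold-sensing channel gene TRPM8 (-2.77 ± 0.096) fell as well.

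Genes for secreted and surface products of the prostate were among the lists furthest below all genes: 5 of 19 rose, 14 fell and 0 did not pass, and the median was -2.05 against -0.01 over all genes. Next to ACP3 and KLK2, the olfactory receptor genes OR51E1 and OR51E2, known as prostate-enriched, were lowest. OR51E1 went from 1062 counts over the DMSO libraries to 12 over the ACBI libraries (ratio 109, 61.9 to 211) and OR51E2 fell by 4.61 on the log2 scale. The 3 kallikreins KLK3, KLK2 and KLK4 went in opposite directions, since KLK4 rose (0.84 ± 0.054), and their sum fell from 5067 ± 58.4 to 1037 ± 56.2 CPM (SD, n = 3). The transporter gene SLC45A3 (1.47), SPON2 and AMACR (0.23), a peroxisomal racemase used as a pathology marker, were other rises. Of the UGT2B and steroid-converting enzymes 6 of 22 rose, 12 fell and 4 did not pass. UGT2B17 (-2.88 ± 0.045), UGT2B15 (-1.92 ± 0.053), UGT2B28 (-1.37) and UGT2B11 (-1.20), of a family that includes enzymes of androgen glucuronidation, fell, while HSD17B14 (2.47 ± 0.14) rose. UGT2B10 was called higher (0.42 ± 0.16), but its libraries overlapped, at 5.35, 4.09 and 3.70 CPM with DMSO and 5.63, 4.78 and 6.96 with ACBI, and the call was lost without ACBI replicate 3 (0.28, adjusted p = 0.131), without DMSO replicate 2 (0.38, 0.067) or 3 (0.31, 0.126) and in a fit of the 6 libraries alone (0.40, 0.059). The UGT2B genes are near-identical copies, so the split of reads between them is uncertain.

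The mitosis and spindle list had the lowest median of the lists examined. All 36 of its members fell, each by at least 2-fold, with a median of -4.11, and their summed level went from 2306 ± 29.8 to 162 ± 1.43 CPM (SD, n = 3). All 35 members of the DNA replication and nucleotide supply list fell, 34 of them by at least 2-fold, with a median of -2.17 and a summed level that went from 2346 ± 18.5 to 589 ± 4.66 CPM. TOP2A on chromosome 17 (40388525 to 40417896, minus strand) was at 156, 165 and 151 CPM with DMSO and 4.70, 4.52 and 4.55 with ACBI. SPC25, a subunit of the NDC80 complex that ties kinetochores to microtubules, went from 13.8, 14.6 and 14.1 CPM to 0.427, 0.348 and 0.497 CPM (-5.04 ± 0.15). RRM2, the regulated subunit of ribonucleotide reductase, went from 133, 135 and 135 CPM to 3.85, 3.74 and 4.22 CPM (-5.09 ± 0.070). In each of these the lowest DMSO library was many times the highest ACBI library. The ubiquitin-conjugating gene UBE2C (-4.97) and the spindle gene ASPM (-4.91) were next in the mitosis list, and the helicase-loading genes MCM10 (-4.43), CDC45 (-4.43) and CDC6 (-4.38) in the replication list. The proliferation marker MKI67 went from 224, 235 and 230.5 to 10.4, 9.18 and 9.32 CPM.

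Promoters of many genes on these lists hold short motifs that are known from cell cycle control. E2F factors bind the first kind of site and act at the G1/S boundary, while the cell cycle homology region (CHR element) is bound by the DREAM and MYB-MuvB complexes and often lies beside CCAAT boxes of the factor NF-Y. The first 3 below are shown because they belong to the largest falls on the 2 lists. That of HES6 is shown because it gained the most mean CPM among called genes, ribosomal RNA left out. Each runs 5′ to 3′ on the gene's strand from 250 bases before the start to 30 bases into the gene, from RefSeq on GRCh38.p14, with capitals for CHR elements (TTTGAA or TTCGAA), boxes of the letters CCAAT, and TATA boxes (TATAAA), on either strand.
TOP2A: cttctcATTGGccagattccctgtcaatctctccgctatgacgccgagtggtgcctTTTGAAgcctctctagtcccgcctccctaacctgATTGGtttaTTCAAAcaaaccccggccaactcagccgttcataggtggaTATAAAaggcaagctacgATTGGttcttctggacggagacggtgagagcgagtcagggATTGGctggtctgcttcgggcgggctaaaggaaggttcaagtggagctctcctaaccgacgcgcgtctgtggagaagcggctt
SPC25: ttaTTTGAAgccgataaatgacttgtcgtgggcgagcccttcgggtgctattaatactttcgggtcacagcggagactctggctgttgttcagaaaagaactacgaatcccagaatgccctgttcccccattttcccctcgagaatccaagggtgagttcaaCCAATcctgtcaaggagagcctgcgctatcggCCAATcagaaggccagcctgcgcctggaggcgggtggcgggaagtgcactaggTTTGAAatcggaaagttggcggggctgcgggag
RRM2: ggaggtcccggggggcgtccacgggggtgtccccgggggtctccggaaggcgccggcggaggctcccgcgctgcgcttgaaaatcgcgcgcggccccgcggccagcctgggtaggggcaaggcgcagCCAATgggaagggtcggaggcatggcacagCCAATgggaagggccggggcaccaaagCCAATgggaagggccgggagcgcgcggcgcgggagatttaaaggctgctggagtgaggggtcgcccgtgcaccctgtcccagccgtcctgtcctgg
HES6: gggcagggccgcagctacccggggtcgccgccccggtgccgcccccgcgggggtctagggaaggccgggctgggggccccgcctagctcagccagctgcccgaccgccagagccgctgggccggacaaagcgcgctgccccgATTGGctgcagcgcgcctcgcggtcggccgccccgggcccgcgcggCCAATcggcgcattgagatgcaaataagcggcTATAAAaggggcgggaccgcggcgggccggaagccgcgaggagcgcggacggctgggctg
These windows are chr17:40417867-40418146 (minus strand), chr2:168890401-168890680 (minus), chr2:10122489-10122768 (plus) and chr2:238240009-238240288 (minus). The TOP2A window holds 2 CHR elements, 4 CCAAT boxes and 1 TATA box, that of SPC25 2 CHR elements and 2 CCAAT boxes, that of RRM2 3 CCAAT boxes in a row, and that of HES6 2 CCAAT boxes and 1 TATA box. The window of SH3D21 holds none of the motifs searched.

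Across the 300-base windows of 11722 tested genes with an entry, 10.99% held a CHR element (1288 genes) and 36.7% a CCAAT box on either strand. Of 30 mitosis genes with an entry 76.7% held a CHR element, 83.3% a CCAAT box and 66.7% both, against 4.76% with both over all genes. Of 31 replication genes 32.3% held an E2F site of the letters TTTGGCGC or TTTCGCGC, against 2.06% over all genes, and 54.8% a CCAAT box. CHR elements and E2F sites were uneven between the lists: 6.45% of the replication genes held a CHR element, below the share of all genes, and 3.33% of the mitosis genes an E2F site. Of 394 genes that fell by at least 8-fold 24.9% held a CHR element, as did 16.3% of 43 genes that rose by as much. Of 36 genes of ribosome assembly 33.3% held an E-box (CACGTG, the site of MYC and MAX) against 10.1%, and of 30 S-phase histone genes 83.3% held a CCAAT box and 63.3% a TATA box against 5.98%. Sites of ETS (CCGGAAGT), AP-1 (TGAGTCA) and the palindrome of NRF1 factors were searched as well and were held by 6.67%, 0% and 0% of the mitosis genes and 9.68%, 0% and 6.45% of the replication genes, against 8.27%, 3.00% and 2.29% over all genes. None of the strings searched contains another. A match is a string of letters and not a bound site, and these lists hold genes long known to share such promoters.

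**Figure D2:**
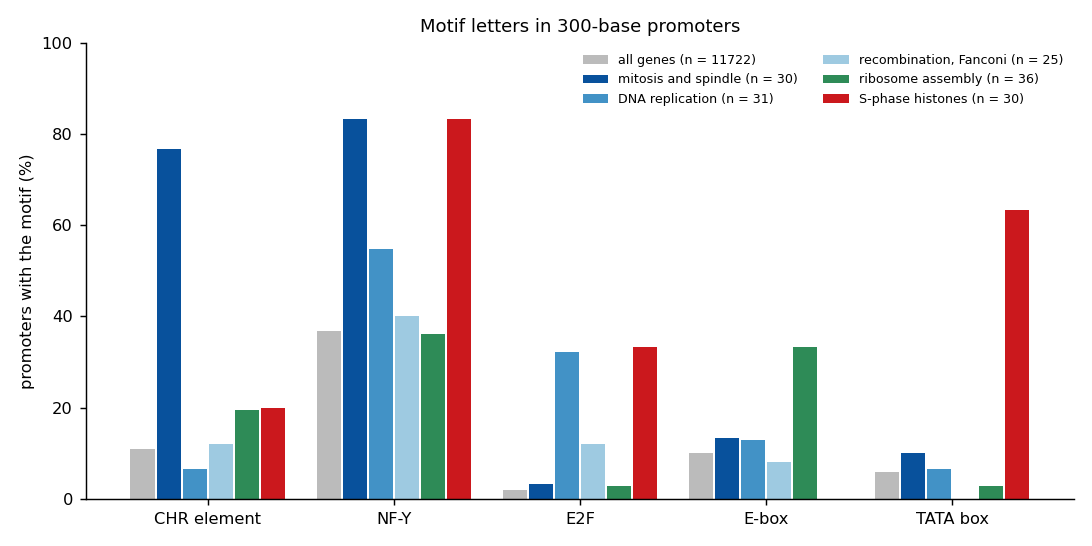
Percent of 300-base promoter windows (vertical axis) that hold each of 5 motifs on either strand, for all 11722 tested genes with an entry and for 5 gene lists (30 mitosis, 31 replication, 25 recombination and Fanconi, 36 ribosome assembly and 30 histone genes). CHR elements stand out in the mitosis list (76.7%), E2F sites in the replication list (32.3%) and the histone genes (33.3%), E-boxes in ribosome assembly (33.3%) and TATA boxes in the histone genes (63.3%).

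Regulators of the G1/S step followed in part. Among 30 tested cyclins, CDKs, E2F and RB genes 1 rose, 20 fell and 9 did not pass. E2F7 (-5.36 ± 0.15), E2F2 (-4.77 ± 0.19), MYBL2 (-4.66 ± 0.081), E2F1 (-3.55 ± 0.078) and CCNA2 (-3.62 ± 0.078) fell most. RB1, the brake on E2F, was the 1 that rose (0.33 ± 0.061), and the cyclin gene CCND1 fell (-0.98 ± 0.034). Of 8 CDK inhibitor genes, CDKN2B rose from 2.15, 2.93 and 2.94 to 7.73, 7.92 and 9.61 CPM (1.64 ± 0.17) and CDKN1B rose slightly (0.26 ± 0.067). CDKN1A, the p53-responsive p21 gene, moved with the division genes instead, from 272, 271 and 270.5 down to 111, 103 and 91.4 CPM (-1.41 ± 0.047), as did CDKN3 (-3.23) and CDKN2C (-1.89). CDKN1C did not pass (-0.01 ± 0.16, adjusted p = 0.956).

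Chromosome structure and repair genes mostly fell, with exceptions. Of 15 constitutive centromere genes 1 rose, 11 fell and 3 did not pass, with CENPK (-3.69), CENPU (-3.54), CENPI (-3.05) and CENPM (-2.91) lowest. CENPN, which holds the centromeric nucleosome, was the exception and rose from 502, 508 and 531 to 792, 767 and 777 CPM (0.60 ± 0.036). Of 21 condensin and cohesin genes 5 rose and 14 fell: NCAPH (-4.41), ESCO2 (-4.34), NCAPG (-4.09) and CDCA5 (-3.61) fell, while NCAPD3, STAG2 (0.71), PDS5B (0.34) and PDS5A (0.19) were among the rises. Of 28 homologous recombination and Fanconi genes 26 fell, 1 rose and 1 did not pass, with EXO1 (-4.94), RAD54L (-4.44) and BRCA1 (-4.10) lowest. The 1 rise was FANCL, the ubiquitin ligase of the Fanconi core, from 4.31, 5.36 and 4.68 to 7.96, 7.87 and 8.86 CPM (0.78 ± 0.12). Of 33 other repair genes 10 rose, 15 fell and 8 did not pass. The checkpoint kinases CHEK2 (-1.96) and CHEK1 (-1.11) and PRKDC (-0.85) fell, and LIG4 (0.76), DDB1 (0.36), ERCC3 (0.33) and PMS2 (0.30) rose.

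MYC fell from 462, 473 and 489 to 50.1, 48.8 and 44.6 CPM (-3.31 ± 0.047), while its partner MAX did not pass (0.02 ± 0.051, adjusted p = 0.773). In the MYC, MAX and MXD network 4 of 14 rose, 6 fell and 4 did not pass: TXNIP (1.55) and ARRDC4 (1.28), arrestin-like genes that the glucose-sensing factor MondoA induces, MYCL (1.13) and the MYC antagonist MXD4 (0.63) rose, and MXD3 (-1.72), MNT (-0.50) and MGA (-0.18) fell. Among 16 genes of BET proteins and the elongation kinase P-TEFb 6 rose, 7 fell and 3 did not pass, and 4 fell without DMSO replicate 2. HEXIM1, which holds P-TEFb inactive, rose from 84.8, 84.9 and 90.3 to 226, 214 and 228 CPM (1.36 ± 0.042), as did ELL2 (1.47), BRD2 (0.46) and AFF1 (0.34). MEPCE (-0.76), CCNT1 (-0.49), BRD3 (-0.42) and MLLT1 (-0.37) fell.

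Histone genes went against the fall of replication. Histone genes made in S phase are normally copied together with DNA, from clusters of intronless genes whose messages mostly lack a poly(A) tail. Of 45 on the list 31 passed the filter: 20 rose, 6 fell and 5 did not pass. Of the rises 15 were of at least 2-fold, and of the falls 4 were. The lowest value was -3.60. The sum over all 45 went from 517 ± 19.1 to 1605 ± 20.4 CPM (SD, n = 3). Without ACBI replicate 3, 20 rose and 3 fell. H2AC8 went from 4.42, 3.03 and 4.05 CPM to 31.7, 31.8 and 32.3 CPM, H2BC21 from 136, 135 and 136 to 471, 465 and 459 CPM (1.78 ± 0.036), and H2AC18, H2BC7 (2.97 ± 0.22) and H2BC18 (2.70 ± 0.14) were other large rises. H2BC21 was chosen after its values were seen, for its coverage in both groups. H2AC18 and H2AC19 are near-identical copies side by side and their values (2.94 and 2.94) cannot be separated by these counts. Libraries were made by capture of poly(A) RNA, and tailed and untailed histone messages were not measured apart.

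Variant histones, histone chaperones and related genes formed another list, some of whose members are themselves made in S phase: 1 of 19 rose, 14 fell and 4 did not pass. The centromeric histone gene CENPA (-4.45) with its chaperone HJURP (-4.41), ASF1B (-4.40) and H2AX (-2.23) fell most, and H3-3A (0.39 ± 0.15) was the 1 rise. The call of H3-3A was lost without ACBI replicate 1, ACBI replicate 3, DMSO replicate 2 or DMSO replicate 3 in turn (0.31 to 0.41, adjusted p = 0.0535 to 0.117).

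Genes of protein synthesis were broadly lower. Of 76 cytosolic ribosomal protein genes 74 fell, 1 rose and 1 did not pass, 0 of them by 2-fold, with a median of -0.44. Their summed level went from 64980 ± 1653 to 47134 ± 569 CPM (SD, n = 3). RPL14 (-0.83), RPS16 (-0.80), RPS2 and RPL12 (-0.75) fell most and RPL35A (0.25 ± 0.037) rose. The list of RNA polymerase I and ribosome assembly went further, with 38 of 42 genes lower, 20 of them by at least 2-fold, 2 higher and a median of -0.91. DKC1 (-1.51), the pseudouridine synthase of small nucleolar particles, MYBBP1A (-1.51), the nucleolar GTPase GNL3 (-1.43) and NOP16 (-1.36) fell, while UTP15 (0.67) and UBTF (0.43) rose. In the mitochondrial ribosome 41 of 75 genes fell, 12 rose and 22 did not pass. MRPS2 (-1.07), MRPS25 (-0.95), MRPS26 (-0.86) and MRPL12 (-0.85) fell most and MRPL33 (0.69), MRPS28 (0.67), MRPL53 (0.42) and MRPS14 (0.39) rose most.

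**Figure D3:**
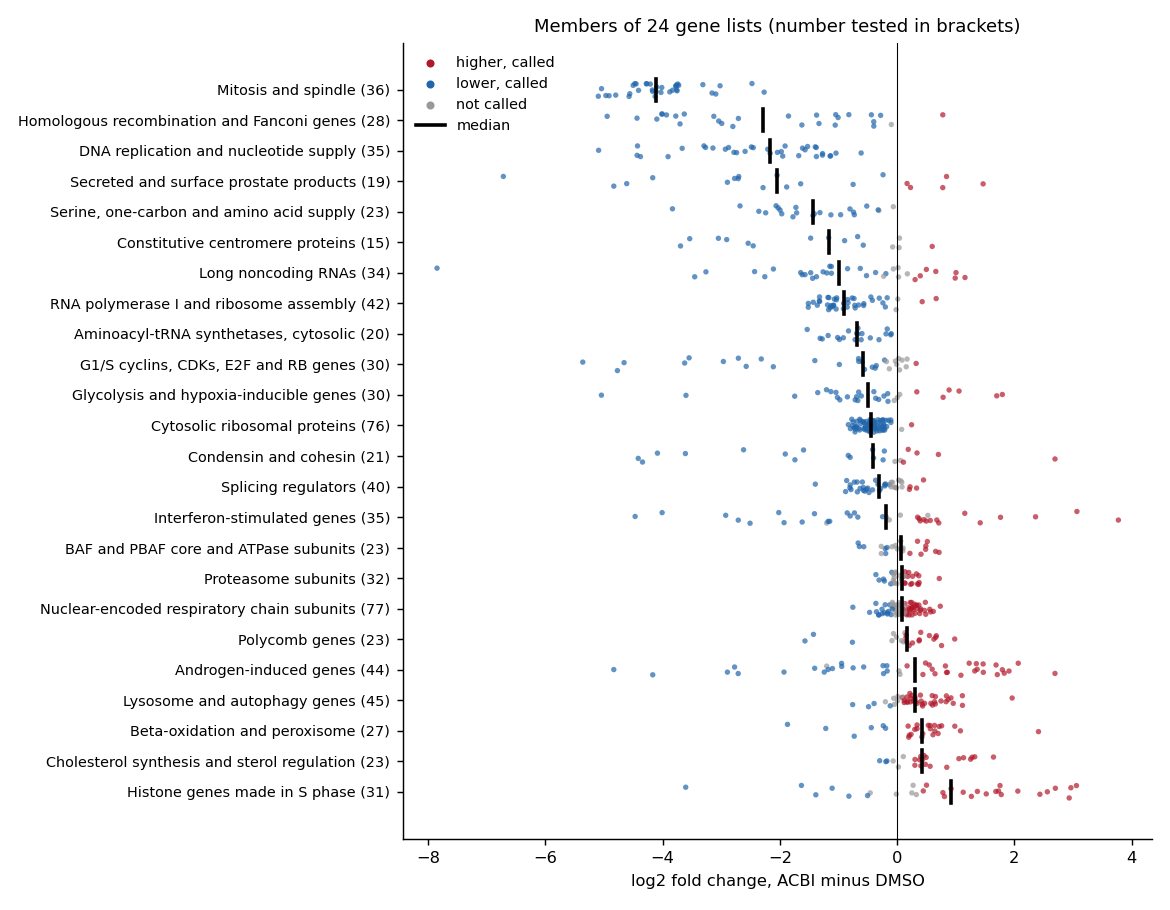
Log2 fold change of ACBI minus DMSO (horizontal axis) for every tested member of 24 gene lists (rows), 1 point per gene, with a bar at each list's median. The mitosis list (median -4.11) lies furthest to the left, the S-phase histone genes (0.92) furthest to the right, and androgen-induced genes reach to both sides.

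All 20 cytosolic aminoacyl-tRNA synthetase genes, which charge tRNAs with amino acids, fell (median -0.68; 18 of 20 without ACBI replicate 3). GARS1 went from 336, 331 and 339 to 118, 118 and 112 CPM (-1.53 ± 0.038), with CARS1 (-1.31), IARS1 (-1.28) and SARS1 (-1.18) next. Amino acid supply fell with them: of 23 genes of serine, one-carbon and amino acid supply 21 fell, 0 rose and 2 did not pass (median -1.43). SLC7A5, the importer of leucine and other large neutral amino acids, went from 30.9, 33.97 and 34.1 CPM to 2.33, 2.61 and 2.03 CPM (-3.83 ± 0.10), and the glutamine transporter gene SLC1A5 (-2.68), mitochondrial MTHFD2 (-2.36) and argininosuccinate synthase ASS1 (-2.24) fell as well.

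Polyamine genes moved to both sides of the pathway: 7 of 12 rose, 4 fell and 1 did not pass. ODC1, which makes putrescine from the ornithine that arginase supplies, fell from 584, 573 and 575 to 181, 192 and 184 CPM (-1.64 ± 0.037), as did spermidine synthase SRM (-1.27), SMOX (-1.31) and OAZ1 (-0.37). ARG2 upstream, AMD1 (1.16), spermine synthase SMS (1.22) and the catabolic acetyltransferase gene SAT1 (1.16) rose. Enzyme activity and polyamines were not measured.

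Genes of lysosomes, beta-oxidation and cholesterol mostly rose. Of 45 lysosome and autophagy genes 35 rose, 4 fell and 6 did not pass (median 0.31). NPC1, which exports cholesterol from lysosomes, went from 66.5, 61.4 and 64.5 to 261, 252 and 237 CPM (1.96 ± 0.045), and the sialidase NEU1 (1.12), cathepsin CTSF (1.11) and MAP1LC3A (0.96) rose, while CTSH (-0.76), GAA (-0.49), SQSTM1 (-0.12) and TFEB (-0.39), the master factor of the lysosome programme, fell. Of 27 beta-oxidation and peroxisome genes 21 rose and 6 fell (median 0.42). The thiolase gene ACAA2 went from 9.83, 9.66 and 10.9 CPM to 54.95, 54.5 and 53.01 CPM (2.41 ± 0.069), and HSD17B4 (1.08) and PEX13 (0.99) rose with it, against falls of CPT1B (-0.73), HADH (-0.44), CPT2 (-0.24) and PEX5 (-0.19). Of 23 cholesterol genes 17 rose, 3 fell and 3 did not pass (median 0.43). The sterol carrier STARD4 (1.65), INSIG1 (1.28) and LSS (1.26) rose. FDPS (-0.30) and FDFT1 (-0.19) fell slightly.

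Fatty acid synthesis was divided evenly, with 11 of 24 genes higher, 11 lower and 2 that did not pass. ACSL4 (1.89), which activates arachidonic acid, ACSL3 (0.86), HACD3 (0.84) and ELOVL1 (0.82) rose, and ELOVL5 (-1.17), ACSL1 (-0.65), ELOVL6 (-0.59) and the desaturase SCD (-0.59) fell. Of 30 glycolysis and hypoxia-inducible genes 21 fell, 6 rose and 3 did not pass. The membrane carbonic anhydrase CA12 (-3.60), VEGFA (-1.75), HK2 (-1.35) and PFKFB3 (-1.20) fell, whereas NDRG1 (1.80), ANKRD37 (1.70), the other hexokinase HK1 (1.06) and ENO2 (0.79) rose. So the hexokinase genes HK1 and HK2 went in opposite directions.

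Among 77 nuclear-encoded respiratory chain subunits 34 rose, 16 fell and 27 did not pass, 0 of them by 2-fold. NDUFC1 (0.74), NDUFB1 (0.62), NDUFB3 (0.57) and NDUFA3 (0.56) of complex I rose, and CYC1 (-0.75), ATP5F1D (-0.47) and ATP5MC1 (-0.36) fell. Of 32 proteasome subunits 15 rose, 6 fell and 11 did not pass, from PSMB4 (0.72), PSMD1 (0.38), PSMC5 (0.37) and PSMD2 (0.37) to PSMD8 (-0.36), PSMD7 (-0.31), PSMA5 (-0.23) and PSMD13 (-0.22). The changes on both lists were small in fold. Of 40 splicing regulators 26 fell, 4 rose and 10 did not pass (median -0.31). HNRNPA1 (-1.39), HNRNPH1 (-0.88), PTBP1 (-0.86) and the epithelial splicing factor ESRP1 (-0.80) fell, and the kinases CLK4 (0.45) and CLK3 (0.33), SF3B1 (0.22) and CELF1 (0.21) rose.

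Signalling pathways showed changes of single genes rather than of whole lists. In the Notch list 10 of 23 rose, 8 fell and 5 did not pass. HEY1, a target of the pathway, was called although it is a low gene: it went from 24 counts over the DMSO libraries to 294 over the ACBI libraries (ratio 9.98, 6.58 to 15.8). With HES6, HES2 (1.59) and the receptor gene NOTCH3 (1.26) rose, while NOTCH1 (-1.50), NRARP (-1.38) and the ligands JAG2 (-1.22) and DLL3 (-0.71) fell. In the Hedgehog list 6 of 13 rose, 4 fell and 3 did not pass. GLI1, the transcription factor at the end of the pathway, had 7, 7 and 9 counts with DMSO and 214, 166 and 194 with ACBI (ratio 20.3, 13.4 to 32.3). HHAT (1.60), which loads a lipid on Hedgehog ligands, DISP1 (1.27) and SUFU (0.68) rose, but PTCH1 (-0.22 ± 0.069), the receptor and usual target gene of the pathway, fell slightly, a call lost without ACBI replicate 2 (-0.16, adjusted p = 0.0582).

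In the WNT list 11 of 29 rose, 11 fell and 7 did not pass. WNT10A (-4.13), FZD8 (-2.25), WNT10B (-1.52) and NKD1 (-1.48) fell, and FZD1 (0.76), APC (0.63), CTNNB1 (0.62) and TCF7L2 (0.55) rose. In the Hippo list 9 of 18 rose, 7 fell and 2 did not pass. AMOTL1 went from 331 counts to 14 (ratio 29.0, 17.04 to 53.6), the coactivator gene WWTR1 (-2.08), AJUBA (-2.02) and TEAD4 (-1.77) fell, and CCN1 (1.50), LATS1 (0.50), LATS2 (0.43) and NF2 (0.40) rose. Of the TGF-beta and BMP genes 12 of 32 rose, 10 fell and 10 did not pass. The BMP targets ID2 (1.79) and ID1 (1.13) rose with BMPR1A (0.72) and TGFBR3 (0.71), against falls of INHBB (-1.49), PMEPA1 (-1.41), BMPR1B (-1.07) and BAMBI (-0.82).

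Receptor tyrosine kinase and PI3K genes included rises from very low levels: 15 of 34 rose, 10 fell and 9 did not pass. RET went from 51 counts to 485 (ratio 7.75, 5.80 to 10.6) and MET, the receptor for hepatocyte growth factor, from 41 to 341 (6.78, 4.89 to 9.62). EPHA2 (1.80) and the mTOR inhibitor DEPTOR (1.52) rose, whereas the lipid phosphatase INPP4B (-1.50), PIK3R1 (-1.45), EPHB4 (-0.68) and ERBB3 (-0.48) fell. Of the immediate-early genes 10 of 25 rose, 7 fell and 8 did not pass. EGR1 went from 0.989, 1.16 and 1.69 CPM to 11.5, 11.4 and 13.4 CPM (3.21 ± 0.20), and ZFP36 (1.18), FOSL2 (0.87) and JUN (0.72) rose, while IER5 (-1.87), SPRED1 (-1.24), BTG2 (-0.91) and JUNB (-0.24) fell.

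Steroid and other nuclear receptors also changed, 11 of 28 upward and 13 downward. The glucocorticoid receptor gene NR3C1 rose from 1.69, 2.88 and 1.47 to 6.45, 9.09 and 7.54 CPM (1.93 ± 0.25) and stayed a low gene. RARG (1.38), PPARA (1.26) and PPARD (1.00) rose, and VDR (-1.55), NR4A1 (-1.07) and ESRRA (-0.86) fell. Of 48 transcription factors of endoderm and epithelium 14 rose, 25 fell and 9 did not pass, and the lowest value was -5.02. Among those with at least 4 CPM in 1 group RUNX2 (-4.71), the bone factor, TWIST1 (-1.25), KLF15 (-1.16) and SOX13 (-0.99) fell most. KLF8 (1.33), KLF5 (1.18) and TFAP2A (1.12) rose.

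Receptors and channels of excitable cells held some of the largest single changes. RYR2, the calcium release channel of the heart and brain, went from 1035 counts to 7 (ratio 181, 87.7 to 452), and SCNN1G (-2.37) and KCNK5 (-2.18) fell, while SCN8A (2.13), ITPR2 (1.41), CLCN3 (1.04) and KCNQ1 (0.85) rose. Over all channels 11 of 33 rose, 17 fell and 5 did not pass. Of the neurotransmitter and peptide receptors 8 of 27 rose, 13 fell and 6 did not pass. The muscarinic receptor gene CHRM4 went from 14 counts to 447 (ratio 26.0, 15.3 to 48.0), and the chemokine receptor CXCR4 from 1.75, 1.16 and 1.74 CPM to 18.2, 17.1 and 14.9 CPM (3.43 ± 0.18). GRIK2 (1.80) and OPRK1 (1.57) rose, and CHRNA2 (-2.22), CHRNA5 (-1.52) and S1PR3 (-1.46) fell.

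HES6 and some of these receptors are known from neuroendocrine cells, so the markers of that and other cell types were listed in full. The summed level of 14 neuroendocrine markers in the table was 90.3 to 98.7 CPM with ACBI and 93.6 to 97.6 CPM with DMSO, so the groups overlapped. Of the 14, 9 were under 1 CPM in all 6 libraries, among them CHGB, NCAM1 and SRRM4, and SCGN was at 0 counts. CHGA, chromogranin A, had 8 counts over the ACBI libraries and 1 over the DMSO libraries and was not tested. Of the 6 that were tested 4 rose, 1 fell and 1 did not pass. The synaptic vesicle gene SYP rose from 2.62, 2.48 and 2.05 to 13.6, 14.5 and 15.03 CPM (2.60 ± 0.16), RET and ENO2 rose as given above, SCG3 went from 1 count to 75 (ratio 61.1, 10.6 to 2446), and DDC fell.

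Luminal epithelial markers moved to both sides: 6 of 14 rose, 5 fell and 3 did not pass. The E-cadherin gene CDH1 rose from 782, 783 and 766 to 1935, 1939 and 1936 CPM (1.32 ± 0.033), and CLDN4 (0.54), KRT8 (0.49) and CLDN3 (0.40) rose. KRT19 (-4.25) and, less, KRT18 (-0.23 ± 0.036) fell. Basal markers summed to 67.4 to 70.0 CPM with ACBI and 81.6 to 97.5 CPM with DMSO over 10 genes in the table, and of the 6 tested DST (0.87) rose and ITGA6 (-0.94) was 1 of 2 that fell. The mesenchymal list summed to 2546 to 2757 CPM with ACBI and 1019 to 1042 CPM with DMSO over 14 genes, nearly all of it FN1, which was the 1 rise among 9 tested; 5 fell, VIM (-1.24 ± 0.098) and TWIST1 among them. Immune markers summed to 7.495 to 8.61 CPM and 7.68 to 8.69 CPM over 9 genes, and of 4 tested 1 rose and 1 fell.

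Matrix genes were divided evenly, with 15 of 35 higher and 15 lower. LAMC1 (1.68), FN1, ITGA3 (1.25) and ITGAV (0.83) rose, and COL9A2 (-3.95), ITGA2 (-1.25), ITGA5 (-1.13) and ITGA6 fell. Of the adhesion and junction genes 14 of 29 rose, 8 fell and 7 did not pass. CDH1 was joined by TJP3 (1.12), TJP1 (0.89) and CTNND1 (0.88), while GJB1, the gap junction gene connexin 32, fell 46.6-fold (-5.54 ± 0.21), followed by CDH26 (-3.45), CLDN8 (-1.93) and PKP3 (-0.92).

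Genes of apoptosis, p53 and interferon each moved both ways. In the BCL2 family 7 of 17 rose, 9 fell and 1 did not pass. The death-promoting genes PMAIP1 (-1.96), BID (-1.48) and BCL2L11 (-0.93) fell together with BCL2 itself (-1.64 ± 0.16), which protects cells. BCL2L1 (0.98) and BCL2L2 (0.78), which also protect, rose with the death-promoting BAD (0.65) and BAK1 (0.42), and MCL1 rose slightly (0.13 ± 0.041), a call lost when library totals alone set the scale (0.08). Of 25 p53 targets 7 rose, 16 fell and 2 did not pass, among them TP53I3 (1.88), PPM1D (1.12), RRM2B (0.73) and FDXR (0.64) higher and CDKN1A, FAS (-1.24), BTG2 and SESN2 (-0.90) lower. Of 35 interferon-stimulated genes 14 rose, 16 fell and 5 did not pass. HERC5, HERC6 (2.36), IRF9 (1.77) and IFI35 (1.42) rose, and IFITM3 (-1.62), IFITM2 (-1.41) and OAS3 (-1.15) fell. Of 18 genes of MHC class I and antigen presentation 4 rose, 11 fell and 3 did not pass: TAPBP (1.26), ERAP1 (1.14), TAP1 (0.49) and HLA-C (0.42) rose, and the class I transactivator NLRC5 (-2.80), CANX (-0.83) and HLA-F (-0.77) fell.

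Of 34 long noncoding RNAs known by name 22 fell, 7 rose and 5 did not pass (median -0.98). DRAIC (-3.26 ± 0.11), a prostate-expressed transcript, and the small nucleolar RNA hosts SNHG3 (-2.43) and SNHG1 (-2.26) fell after PCAT1, while SCHLAP1 (1.16 ± 0.064), which has been reported to bind SWI/SNF, NEAT1 (0.66) and MALAT1 (0.40) rose. Over all 1144 tested genes that RefSeq classes as lncRNA the median was -0.11, against -0.01 over 13200 protein-coding genes. Zinc finger genes on chromosome 19 were near the background, with 83 of 260 higher, 74 lower and 103 that did not pass. This list was drawn by name, as every tested symbol there that starts with ZNF or ZFP. It therefore also holds the antisense transcript ZNF529-AS1, and ZFP36, which is on the immediate-early list as well. ZNF575 (1.95), ZNF540 (1.84), ZNF529-AS1 (1.25) and ZFP36 were highest, ZNF724 (-1.46), ZNF66 (-1.29) and ZNF726 (-1.15) fell, and the pseudogene ZNF812P went from 601 counts to 10 (ratio 73.7, 39.8 to 155). Antisense and overlapping transcripts are uncertain, since the strand setting of the counting is not given in the sources used here.

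The change also went with the length of the gene. When the 15422 genes were put in 5 groups of equal size by the span from start to end, the median log2 fold change was -0.10 in the shortest, -0.07, -0.04 and 0.01 in the next, and 0.16 in the longest, and the share of genes that rose went from 27.4% to 46.6%. The difference in medians between the longest and the shortest group was 0.26. From log2 CPM against the mean of the 3 DMSO libraries, a baseline that they share, the ACBI libraries gave 0.19, 0.22 and 0.29. Spans are as listed, and the longest, 129862849 bases, is not plausible for a gene. By chromosome the medians lay between -0.13 for chromosome 16 (734 genes) and 0.08 for chromosome 18 (216 genes).

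Among 18 tested ribosomal RNA genes 1 passed, RNA28SN3, and this call rests on ACBI replicate 3. Its levels were 195, 358 and 410.2 CPM with DMSO and 372, 468 and 4786 CPM with ACBI (2.55 ± 0.84, edgeR adjusted p = 0.016), and without that library the log2 fold change was 0.39 and did not pass (adjusted p = 0.477). It did not pass without DMSO replicate 1 either (2.29, adjusted p = 0.0594). None of the mitochondrially encoded genes was in the table as used here.

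**Figure D4:**
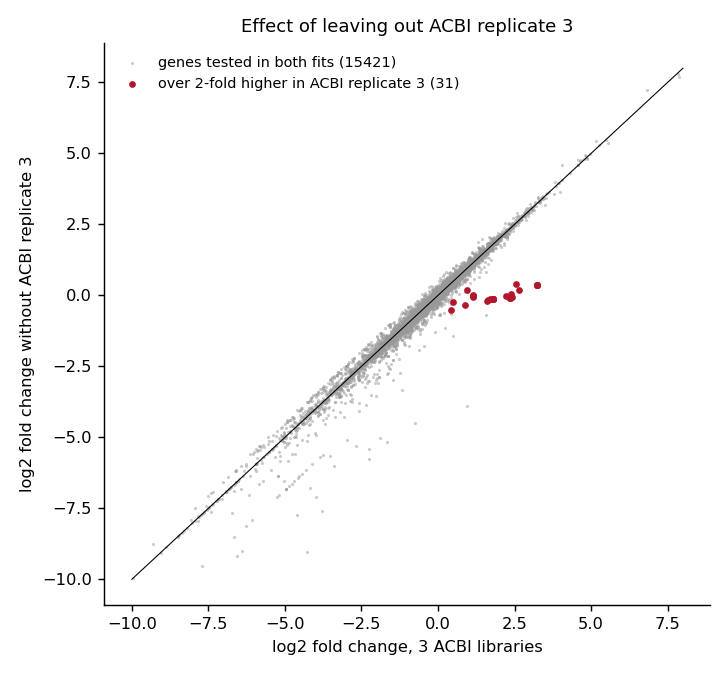
Log2 fold change of ACBI minus DMSO without ACBI replicate 3 (vertical axis) against that with all 3 ACBI libraries (horizontal axis), 1 point per gene for 15421 genes tested in both. Most points follow the line of equal values, some lowered genes with few counts lie below it, and so do the 31 genes over 2-fold above both other ACBI libraries in replicate 3, in red.

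Each of the other compounds was set against ACBI in the same fit. The doses differ, so these are contrasts of compound and dose together. ACBI differed from 2-77 in 10822 genes (70.2%), from BD98 in 10740 (69.6%), from P-16 in 11022 (71.5%) and from ENZA in 10809 (70.1%), and the first principal component of all 18 libraries, with 64.6% of the variance, separated ACBI from the other 15 libraries. HES6 was at mean levels of 105, 58.1, 109 and 74.97 CPM with 2-77, BD98, P-16 and ENZA and 5732 ± 172 CPM with ACBI, and the mean of DMSO (184 ± 3.56 CPM) lay between (ACBI minus P-16, the nearest, 5.72 ± 0.058). ARG2 (119, 98.1, 155 and 149.8 CPM in that order) was likewise lower with each of them than the 237 ± 9.25 CPM of DMSO, and higher with ACBI (ACBI minus P-16 3.90 ± 0.044). COLCA1, at 13.8 ± 0.900 CPM with ACBI, was at 568, 650.4, 506 and 800.3 CPM with the others.

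Lists were compared in the same way. All 36 mitosis genes and all 35 replication genes were lower with ACBI than with each of the 4 compounds. Of the 19 genes of secreted and surface products 11 were lower and 6 higher than with 2-77, 12 and 5 than with BD98, 13 and 5 than with P-16 and 11 and 5 than with ENZA (medians -0.53, -1.22, -1.77 and -0.94). Androgen-induced genes lay mostly on the other side. Of the 44 genes of that list 34 were higher and 6 lower with ACBI than with 2-77, where 33.4% and 36.8% of all genes were. Against ENZA 36 were higher and 7 lower (33.3% and 36.7% of all genes), against P-16 31 and 11 (35.0% and 36.5%), and against BD98 29 and 11 (33.4% and 36.2%). KLK3, at 654 ± 24.00 CPM with ACBI, was at 737 CPM with 2-77 (ACBI minus 2-77 -0.17 ± 0.031) and 961 CPM with ENZA (-0.56 ± 0.031), but at 2556 and 2398 CPM with BD98 and P-16. TMPRSS2, the androgen-driven protease gene, was named after its values were seen: it was at 212 ± 4.49 CPM with ACBI against 806 ± 2.61 with DMSO, above 2-77 (0.64 ± 0.037) and close to ENZA (0.10 ± 0.037, edgeR adjusted p = 0.0132). NCAPD3 was at 96.9 CPM with 2-77 and 96.5 CPM with ENZA against 690 ± 9.72 CPM with ACBI (ACBI minus ENZA 2.84 ± 0.039). ACP3 went the other way, at 185, 127 and 178 CPM with 2-77, P-16 and ENZA against 4.59 ± 0.173 CPM with ACBI (ACBI minus ENZA -5.28 ± 0.061). BD98 was the other compound with low ACP3, at 19.1 CPM (ACBI minus BD98 -2.05 ± 0.072).

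TOP2A and FN1 separated ACBI too. TOP2A was at 104, 126, 115 and 101 CPM with 2-77, BD98, P-16 and ENZA against 4.59 ± 0.0939 CPM with ACBI (ACBI minus ENZA -4.46 ± 0.066). FN1, at 2635 ± 111 CPM with ACBI, was at 584, 529.5, 923 and 505 CPM. GATA2 was at 79.4 ± 6.87 CPM with ACBI and at 308, 264, 327 and 332 CPM with the others, against 254 ± 1.16 with DMSO.

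**Figure D5:**
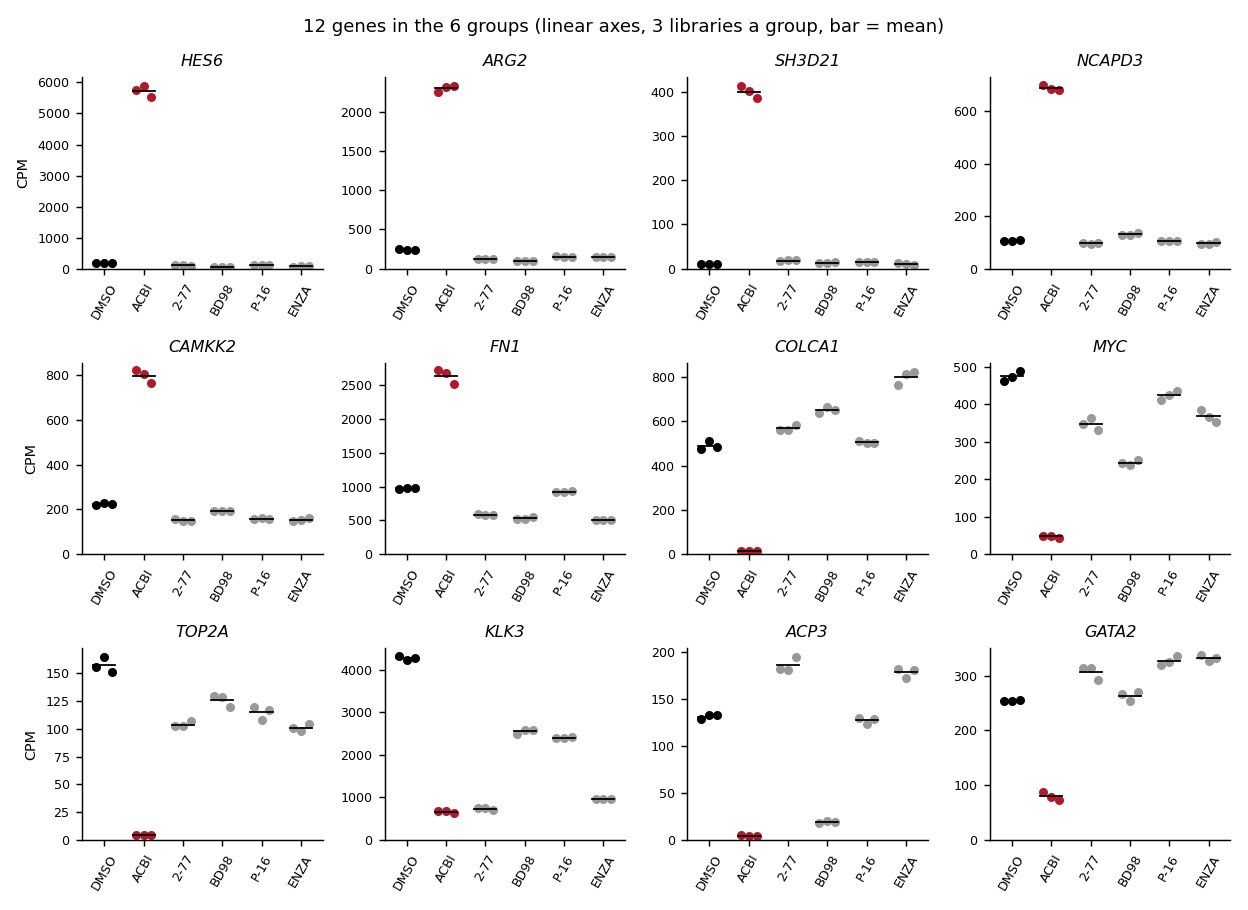
CPM (vertical axes, linear, 1 panel per gene) of HES6, ARG2, SH3D21, NCAPD3, CAMKK2, FN1, COLCA1, MYC, TOP2A, KLK3, ACP3 and GATA2 in the 6 groups (horizontal axis), with 1 point per library and a bar at the mean of 3. The 3 ACBI libraries of HES6 lie between 5543 and 5880 CPM, above the other 15 libraries, and those of TOP2A lie near 4.59 CPM, below them.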

How the data were processed

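Total RNA of LNCaP cells was made into stranded libraries of messenger RNA, per the labels' protocols. The submitters' processing notes name STAR, Partek, DESeq2 and hg38 without versions or roles, and the program that counted reads, its annotation and its filter are not given in the sources used here. The deposited table holds expected counts (estimated reads, with decimals and unscaled) of 20145 genes in 18 libraries of 16835093 to 36975028 counts. Columns named SCO277 were taken as 2-77 and PB_16 as P-16, and 0 sample columns were left unused. Gene ends were taken as the base before the listed stop, with which 57.8% of 19302 matched genes had both ends equal to RefSeq.

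Rounded counts went into edgeR 4.0.16 (R 4.3.3): filterByExpr with 6 groups (15422 genes left), TMM factors, a robust quasi-likelihood fit of all 18 libraries with 12 residual degrees of freedom, a two-sided F test, and Benjamini-Hochberg adjustment over all tested genes at 0.05. The standard error is the absolute log2 fold change divided by the square root of F. CPM use the TMM-scaled library size. The common biological coefficient of variation was 0.0573. Between replicates the chi-square of counts per degree of freedom, without ribosomal RNA, was 2.65 for ACBI replicates 1 and 2, 12.7 and 8.44 for replicate 3 against them, and 2.21 to 2.95 with DMSO. A count of 3 equals 0.115 to 0.174 CPM in the 6 libraries. Ratios of few counts have exact 95% intervals, which cover counting error only. The fit was also run on simulated counts in which few genes differed between ACBI and DMSO, as many up as down. Most genes changed here, so that run does not measure its error on these data. Plots come from matplotlib 3.10.9 (Python 3.11.15).

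The members, the 61 lists and the naming rule were chosen with earlier results of these data known. The rule took the 12 largest rises and falls that had 20 CPM or more in 1 group and no overlap of libraries. Clone and locus names were passed over in that step. It also took the 8 largest gains and losses in mean CPM among called genes, with ribosomal RNA left out. Added to these were up to 4 changed members of a list per direction with at least 4 CPM, and a panel of genes. Not all are reported. Promoters were matched by symbol to RefSeq windows of 300 bases. Same-number libraries of ACBI and DMSO did not deviate together (residual correlations 0.070, -0.078 and -0.074), so libraries were treated as unpaired. Alternatives were DESeq2 1.42.0, RLE factors, library totals, no filter, a stricter filter (5 CPM in 3 libraries), a fit of only ACBI and DMSO, a replicate block, removal of ribosomal RNA genes and removal of each library in turn.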

Additional observations from a re-analysis of the deposited data

How the results depend on the processing

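Under 14 alternatives the total of 11097 changed genes, its split by direction and the length trend stayed within 1.5 times of the values given. So did the 4 contrasts with other compounds, run only with DESeq2, library totals, the replicate block and without ACBI replicate 3. Of each list only the more frequent direction was compared, and lists of fewer than 5 tested genes and ribosomal RNA were left out. In the other direction, 6 falls among S-phase histone genes became 3 without ACBI replicate 3. The list counts compared and the counts of 2-fold changes also stayed within 1.5 times, with 8 exceptions. A stricter filter (5 CPM in 3 libraries), which tests 11939 genes, left 719 genes that rose and 1120 that fell by at least 2-fold. On single lists it left 7 falls among UGT2B and steroid-converting enzymes, 6 rises in the Notch list, 7 falls among interferon-stimulated genes, 1 fall among basal and 2 among mesenchymal markers. With each library left out in turn the falls among BET and P-TEFb genes ranged from 4 to 7, lowest without DMSO replicate 2. With the replicate number as a block, 10997 genes changed and no such count moved by 1.5 times; same-number libraries did not deviate together, and the block changed the call of 1 gene taken by the naming rule, CYCS. DESeq2 called 10897 genes. Scaling by library totals shifted the median of all genes from -0.01 to -0.05 and the share of calls that rose from 49.2% to 45.8%. Of 421 genes that the naming rule took or the text names and that were called, 411 kept direction and call in each alternative that tested them and 0 reversed. Low genes limit the reading most: in a library, values near 0.115 to 0.174 CPM rest on about 3 counts.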
